A study of Homo sapiens with 8 samples.

Results

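The regions described here are the ATAC-seq sites on human chromosomes 13 and 18, which have the fewest genes for their length of the autosomes. ATAC-seq uses the Tn5 transposase to insert sequencing adapters into open DNA, so that a site marks accessible chromatin. All sites on either chromosome were taken from the authors' 2 lists, one named for opening by the morphogens (opened sites) and the other for opening by the morphogens with closing by p63 (p63-closed sites). Together they gave 985 of the 14191 listed sites. Chromosome 13 held 555 of them, of which 295 were opened and 260 were p63-closed. Chromosome 18 held 430, of which 281 were opened and 149 were p63-closed. The lists were separate on both chromosomes. Of the 409 p63-closed sites, 0 shared as much as 1 bp with an opened site. Sites of both lists are named by number from 1 catalogue, and 0 names were shared. The missing overlap thus describes the lists and is no trait of these chromosomes.

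The study profiled H9, a line of human embryonic stem cells, in 8 samples that form 4 groups of 2. Wild-type cells were taken at day 0, and again at day 7 of treatment with 1 uM retinoic acid and 5 ng/ml BMP4, when they are labelled surface ectoderm. Knockout cells (p63-/-) received the same treatment and were also taken at day 7. Cells of genotype TetO:Tp63+/- were taken as stem cells after 2 days of doxycycline at 2 ug/ml. In the labels the opened list goes with both wild-type groups, and the p63-closed list with wild-type and p63-/- cells of day 7. No list belongs to the doxycycline samples, so they are not described. The sources used here do not say whether the knockout line is 1 clone. The lists hold positions and site names only. Depth per sample is therefore unknown, no culture has a value of its own, the identity of the cells could not be checked on marker genes, and no test between cultures was possible. The p-values given here take bins of the genome or sites as units and say nothing of the spread between cultures. Which way a site changed is known only from the name of its list.

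Surface ectoderm is the simple epithelium from which the epidermis forms. Retinoic acid acts through nuclear receptors and BMP4 through SMAD proteins, and together they move pluripotent cells towards this state. The transcription factor p63, encoded by TP63 on chromosome 3, is needed for stratified epithelia and can act on chromatin that is still closed. Sites that open during differentiation are often enhancers, which can lie far from the genes they act on, also in long stretches with few genes. In many cell types the territory of chromosome 18 lies towards the edge of the nucleus.

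The label of both chromosomes as gene-poor was checked against the RefSeq gene table, which follows a later assembly (GRCh38.p14) and was used for names and counts only. Chromosome 13 had 338 protein-coding genes and chromosome 18 had 270. Divided by the span between the first and the last listed site, these gave 3.57 and 3.48 genes per Mb, the lowest values of the 22 autosomes, against 7.11 over the other 20. The listed sites of chromosome 13 ran from 20175412 to 114871716 and those of chromosome 18 from 158064 to 77749322. All positions are on hg19 and count from 1.

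Few genes did not go with few listed sites on these chromosomes. Chromosome 13 had 5.86 listed sites per Mb of span, the highest of the 22 autosomes, and chromosome 18 had 5.54, the fourth highest. The chromosomes differed in their mix: chromosome 13 was filled about evenly by both lists, while on chromosome 18 opened sites outnumbered p63-closed sites. Sites were also counted per 1000 entries of the numbered catalogue from which site names are drawn, which takes account of assembly gaps. On that scale chromosome 13 held 4.65 opened sites (95% interval 4.14 to 5.22) and 4.10 p63-closed sites (3.62 to 4.63). Chromosome 18 held 5.60 opened sites (4.96 to 6.29) and 2.97 p63-closed sites (2.51 to 3.49). The other 20 autosomes together held 4.37 and 3.41. Chromosome 13 thus ranked first of 22 for p63-closed sites and sixth for opened sites, and chromosome 18 ranked second for opened sites and 18th for p63-closed sites. These intervals are exact Poisson intervals and cover counting error only.

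**Figure D1:**
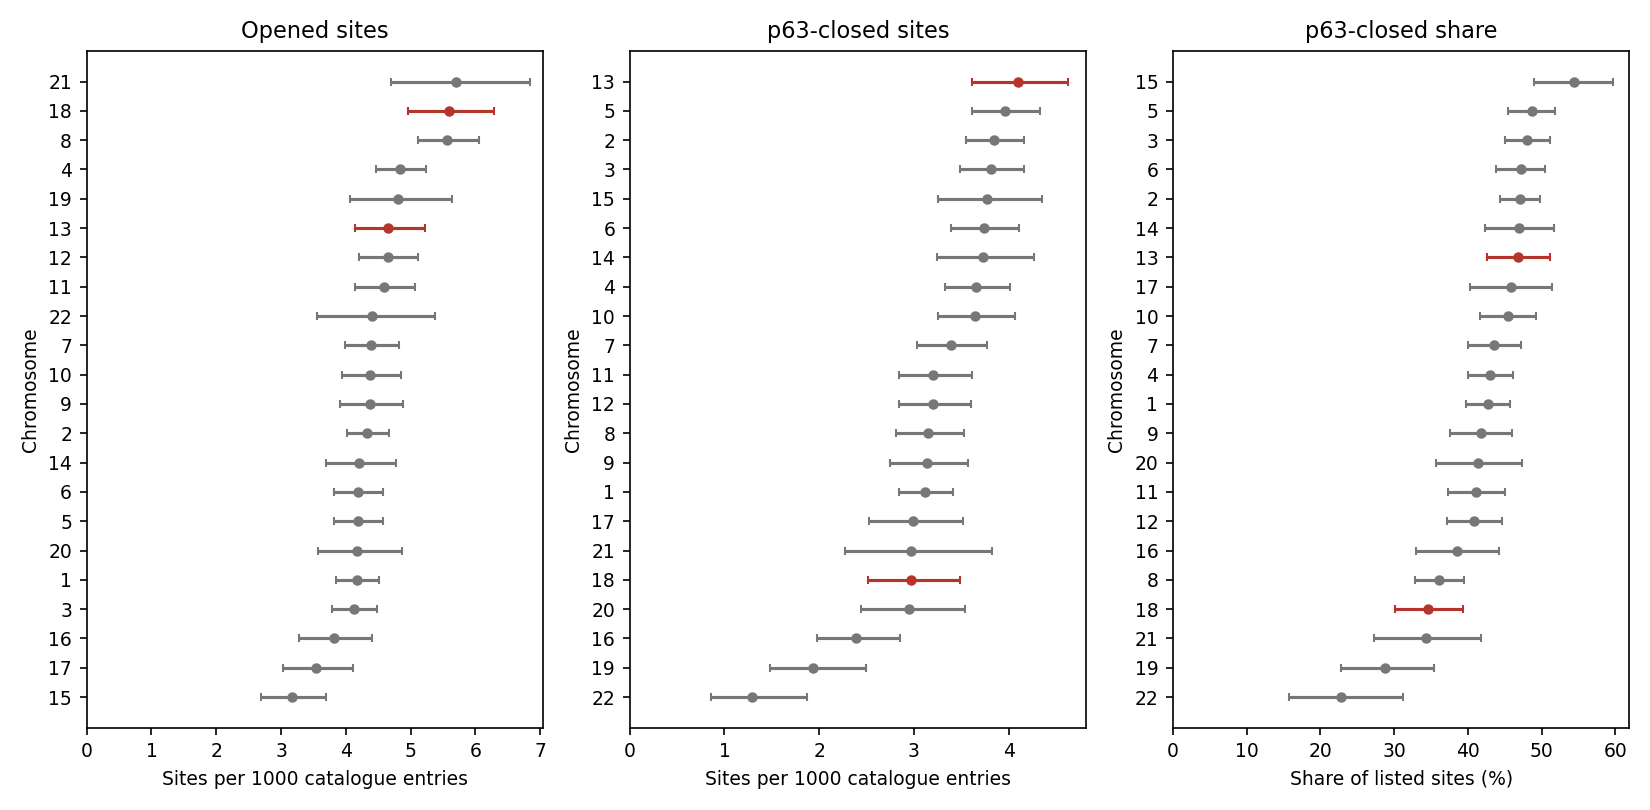
Density of opened sites and of p63-closed sites (sites per 1000 catalogue entries, exact 95% Poisson intervals) and p63-closed share of listed sites (percent, exact 95% binomial intervals) for the 22 autosomes, each panel sorted by its own value. Chromosomes 13 and 18 are in red; for p63-closed sites chromosome 13 ranks first of 22, at 4.10, and chromosome 18 ranks 18th, at 2.97.

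In the main models, which allow for the gathering of sites, none of the differences from the other autosomes passed the threshold. Some other settings, given below and in the last section, took chromosome 18 past it. The models were fitted to 5 Mb bins of the 22 autosomes, with dispersions of 2.91 to 3.14, which widen the intervals well beyond counting error. The density of opened sites on chromosome 18 was 1.28 times that of the other autosomes (95% interval 1.04 to 1.57; unadjusted p = 0.0175, adjusted p = 0.105 over 6 terms). On chromosome 13 it was 1.06 times (0.872 to 1.30; adjusted p = 0.538). The density of p63-closed sites was 1.20 times that of the other autosomes on chromosome 13 (0.973 to 1.49; adjusted p = 0.177) and 0.871 times on chromosome 18 (0.659 to 1.15; adjusted p = 0.496).

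The share of p63-closed sites among listed sites was 46.8% on chromosome 13 (exact binomial 95% interval 42.6 to 51.1%), 34.7% on chromosome 18 (30.2 to 39.4%) and 43.8% on the other 20 autosomes (42.9 to 44.7%). In the quasi-binomial fit the odds of a site being p63-closed were 0.680 times those elsewhere on chromosome 18 (0.475 to 0.973; unadjusted p = 0.0349, adjusted p = 0.105). On chromosome 13 they were 1.13 times those elsewhere (0.835 to 1.53; adjusted p = 0.512). With bins of 2 Mb, which treat more of the gathered sites as independent, chromosome 18 passed the threshold for both its share and its density of opened sites (adjusted p = 0.0361 for each). Set against each other, a comparison chosen after the values were seen, chromosome 13 had 1.66 times the odds of chromosome 18 (1.05 to 2.63; unadjusted p = 0.0307, adjusted p = 0.0920 over 3 differences). That comparison too passed with 2 Mb bins (adjusted p = 0.0302).

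Across the 22 autosomes, chromosomes with fewer genes per Mb tended to hold more p63-closed sites per 1000 entries (Pearson's r -0.70, Spearman's rho -0.59). Without the gene-dense chromosomes 19 and 22, r was -0.51 over 20 autosomes. Chromosome 13 lay at the upper end of this relation and chromosome 18 well below it, although their gene densities were almost equal. For the p63-closed share r was -0.50 over all 22 and 0.04 without chromosomes 19 and 22, so that relation rested on those chromosomes. For opened sites per 1000 entries r was -0.17 over all 22 and -0.53 without chromosomes 19 and 22. Among the remaining 20 autosomes fewer genes thus went with more sites of either list, and not of the p63-closed list alone. The points share the same lists and the same catalogue, and chromosomes are not replicates, so these values are a description.

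**Figure D2:**
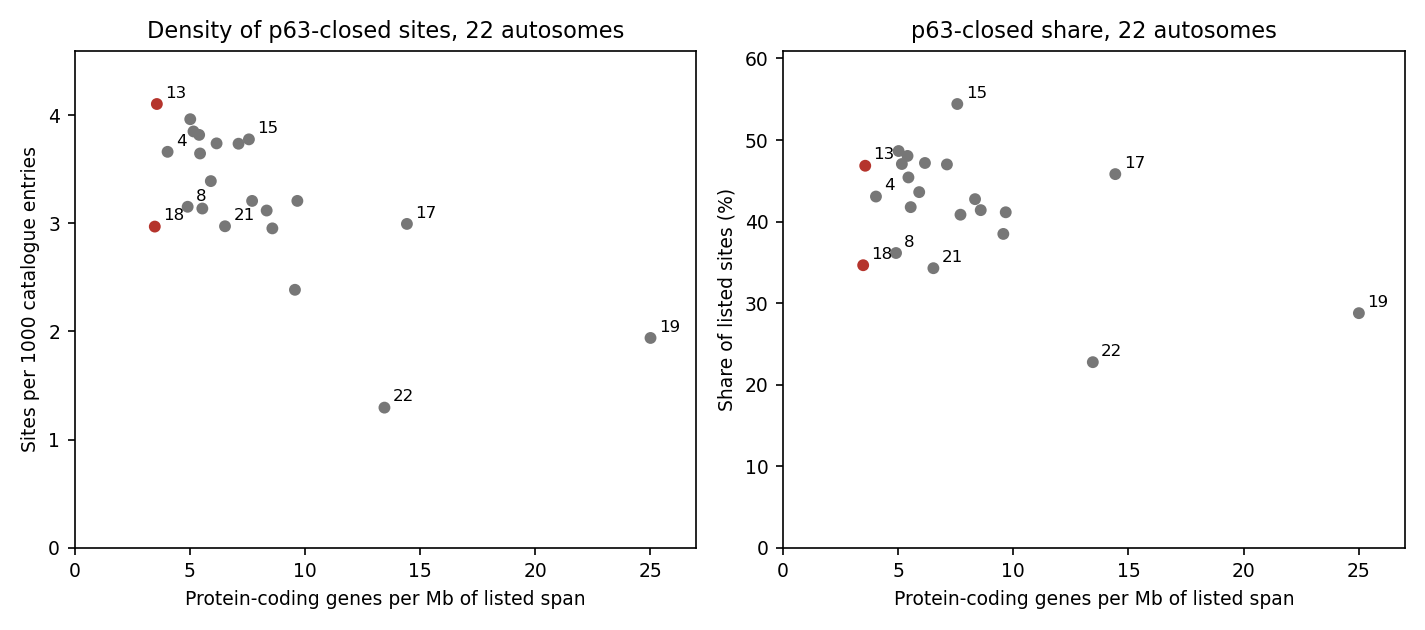
Density of p63-closed sites (left, sites per 1000 catalogue entries) and p63-closed share (right, percent) against protein-coding genes per Mb of listed span, 1 point per autosome. Chromosomes 13 and 18 (red) have the fewest genes per Mb, 3.57 and 3.48, and differ in both measures.

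Along chromosome 13 the lists were about even over most of the long arm, and opened sites prevailed at its end. Its 19 bins of 5 Mb held 18 to 37 sites, with a median of 29. The most opened sites lay in the bin from 95000001 to 100000000, with 24 opened and 9 p63-closed, and in the last bin, from 110000001 to 115000000, with 22 and 4. Of the 4 bins with 18 opened sites, those from 20000001 and from 40000001 also held the most p63-closed sites, 19 each. The other 2, from 45000001 and from 70000001, held 16 and 9. Next for p63-closed sites came 5 bins with 16 each. The highest p63-closed shares were 72.2% in the bin from 55000001 (13 of 18 sites; 46.5 to 90.3%) and 61.5% in the bin from 35000001 (16 of 26; 40.6 to 79.8%). The lowest were 15.4% in the last bin (4.36 to 34.9%) and 27.3% in the bin from 95000001 (13.3 to 45.5%). From 55000001 to 60000000, a stretch that holds the protocadherin gene PCDH17, there were only 5 opened sites, the fewest of any bin on the chromosome.

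Chromosome 18 was less even. Its 16 bins held 12 to 39 sites, with a median of 27, and opened sites were in the majority in 13 of them. The bin with 12 sites was the last, which covered only 1757 catalogue entries up to the last listed site. The most opened sites lay from 70000001 to 75000000, with 30 opened and 6 p63-closed, from 20000001, with 29 and 10, and from 5000001, with 25 and 14. The most p63-closed sites lay in adjoining bins from 40000001 and from 35000001, with 18 and 17 against 9 and 10 opened, and then in the bin from 5000001. The highest shares were 66.7% in the bin from 40000001 (46.0 to 83.5%) and 63.2% in the bin from 10000001 (12 of 19 sites; 38.4 to 83.7%). The share was low towards the end of the long arm: it was 21.1% from 65000001 to 70000000, 16.7% in the next bin (6.37 to 32.8%) and 0% in the last one, where all 12 sites were opened (exact upper limit 26.5%). In the bin from 15000001, which holds the centromere, it was 15.8% (3 of 19 sites, 3.38 to 39.6%). For its few catalogue entries this bin was the densest of the chromosome in opened sites. It had 16 over 1175 entries, or 13.6 per 1000, against 8.76 in the bin from 70000001.

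**Figure D3:**
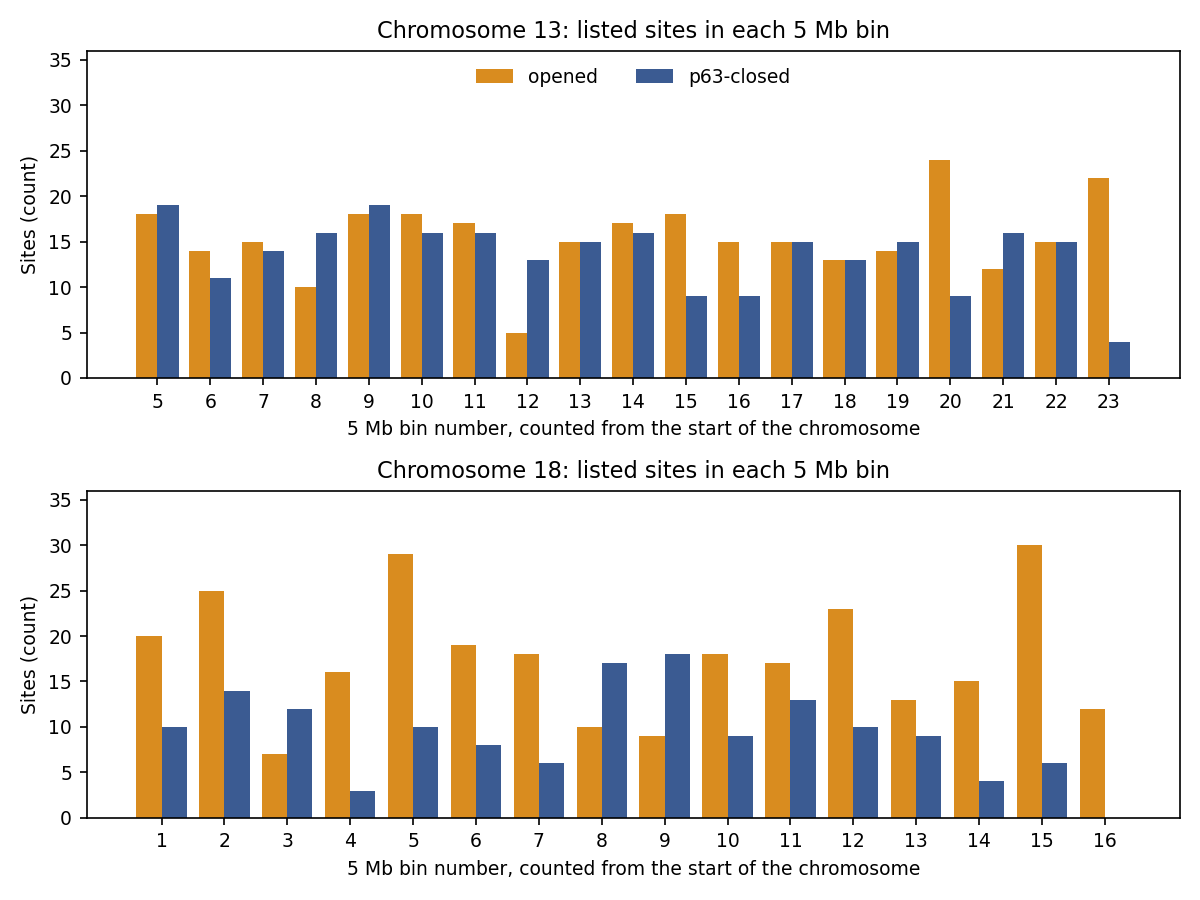
Number of opened (orange) and p63-closed (blue) sites in each 5 Mb bin of chromosomes 13 and 18, bins numbered from the start of the chromosome. The last bins hold 22 opened against 4 p63-closed sites on chromosome 13 and 12 against 0 on chromosome 18.

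Each bin with at least 6 sites was set against the autosomal share of 43.6% with a two-sided exact binomial test, adjusted over the 542 such bins of the 22 autosomes. On chromosomes 13 and 18 there were 3 of 35 bins called (8.57%), against 11.1% of bins over all autosomes. All 3 had fewer p63-closed sites than the autosomal share, a direction called in 4.43% of bins over all autosomes, and 0 of 35 had more, against 6.64%. They were the last bin of chromosome 13 (adjusted exact p = 0.0427) and the last 2 of chromosome 18 (adjusted exact p = 0.0185 and 0.0234). All thus lay at the ends of the long arms. Where called bins lie on the other autosomes is not given here, so this position is not shown to be particular to these chromosomes. Over both directions the share called was thus no higher than the background, and the share called with fewer p63-closed sites, 8.57% against 4.43%, rests on 3 bins. Because nearby sites tend to share a list, sites are not the independent draws that this test assumes.

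**Figure D4:**
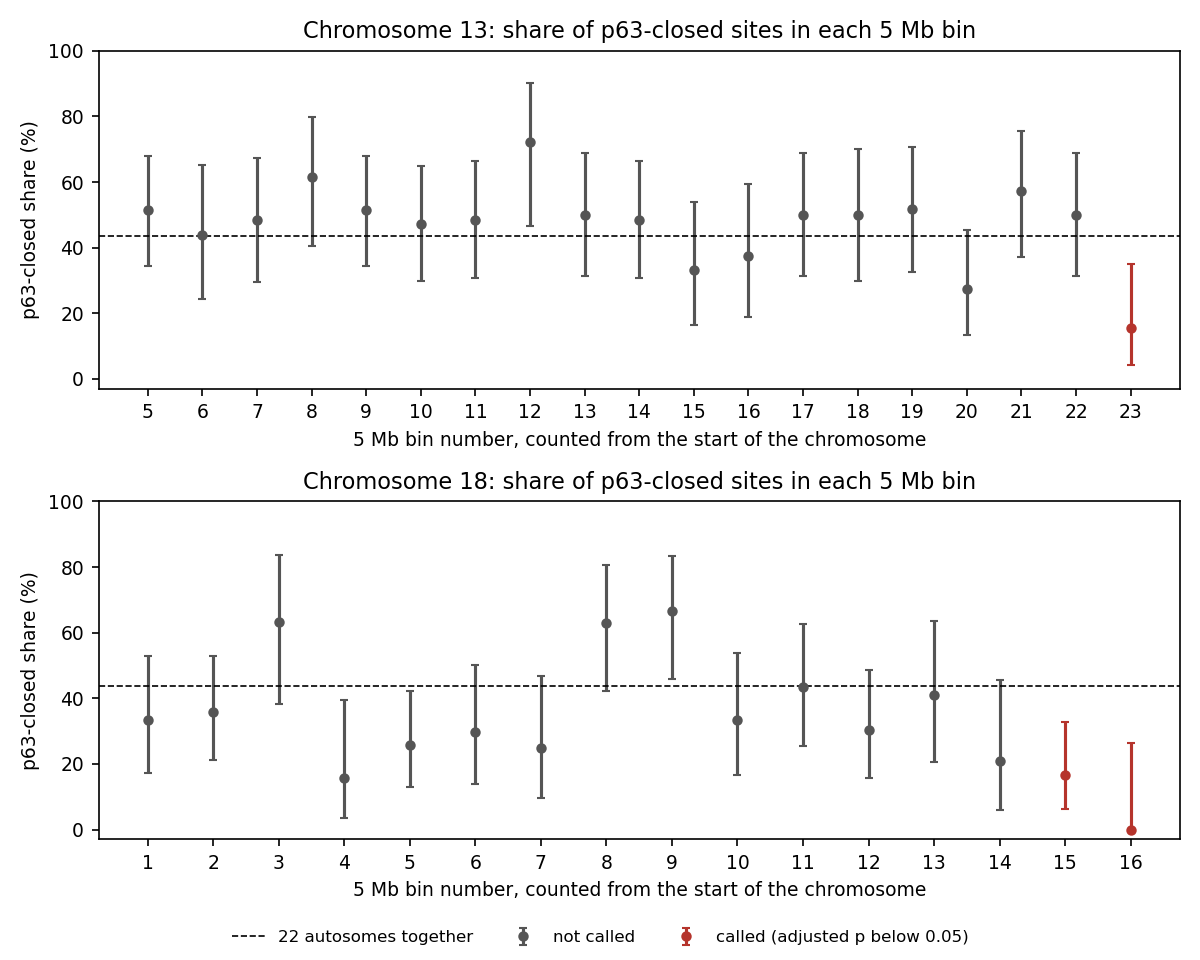
Share of p63-closed sites (percent, exact 95% binomial intervals) in each 5 Mb bin of chromosomes 13 and 18, bins numbered from the start of the chromosome, with the autosomal share of 43.6% as a dashed line. The 3 bins called by the exact binomial test, in red, lie at 15.4% on chromosome 13 and at 16.7% and 0% on chromosome 18.

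The arms of chromosome 18 were separated by the longest stretch without a listed site, 4.85 Mb from 13801960 to 18653764, which covers the centromere and held only 372 catalogue entries. The short arm had 88 sites, of which 40.9% were p63-closed (30.5 to 51.9%), and the long arm 342, of which 33.0% were (28.1 to 38.3%). These intervals overlap. Chromosome 13 is acrocentric, and no site was listed before 20175412. Its longest empty stretches were 1.45 Mb from 21135000 to 22588186 and 1.35 Mb from 107514104 to 108867819, the latter across 1024 catalogue entries of which none was listed. On chromosome 18 the next longest after the centromere was 1.47 Mb from 68704986 to 70172081, across 1023 entries.

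Known loci were then counted in 1 Mb windows. The lists name no genes and no hg19 annotation was used, so the window of each gene was taken from general knowledge of the hg19 gene map. The gene table of the later assembly had all 72 symbols looked up on the stated chromosome, with 0 pairs of loci out of order. Where a gene lies within its window was not checked. A site in the window is not shown to lie near the gene or to act on it. Where loci share a window (IRS2 with the COL4A1 and COL4A2 pair, LAMA1 with PTPRM, SOX21 with the GPC5 and GPC6 pair), its sites are given at each but counted once in the totals of a group and of all loci. In all, 58 loci on 68 windows held 434 sites, 6.38 per window against 5.69 over all 173 windows of both chromosomes. Of these sites 37.3% were p63-closed (32.8 to 42.1%), against 41.5% over all windows (38.4 to 44.7%). Each locus held at least 1 site, and 45 held at least 4. Opened sites were in the majority at 39 loci, p63-closed sites at 13, and 6 were even. Over all windows the counts were 95, 45 and 33, the last of which includes the 8 windows with no site. Some loci span several windows and some share a window with another locus, so counts of loci and of windows are not in the same unit.

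The windows of epithelial genes held 61 sites in 8 windows, 43 opened and 18 p63-closed, a p63-closed share of 29.5% (18.5 to 42.6%). The interval reaches the 41.5% of all windows. Opened sites were in the majority at 6 of the 7 loci. The window of KLF5, a zinc-finger factor of proliferating epithelia, held 14 sites, 8 opened and 6 p63-closed, in separate blocks. It began with 6 opened sites between 73036909 and 73269746, of which the last is 3569 bp wide. Then came 5 p63-closed sites between 73400145 and 73682468, and after these the lists alternated: opened at 73747224, p63-closed at 73767944 and opened at 73946303.

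The 2 windows of the desmocollin and desmoglein genes, the cadherins of desmosomes, held 13 opened and 3 p63-closed sites. At GJB2 and GJB6, which encode gap junction proteins of skin and inner ear, 8 opened sites stood beside 2 p63-closed ones. The serpin cluster, which holds the gene for maspin, had 5 and 1, and LMO7, whose product binds adherens junctions, had 4 and 1. LAMA3, which encodes a chain of the basement-membrane laminin beneath epidermis, had 2 opened sites and no p63-closed one. The exception was the window of SCEL, a precursor of the cornified envelope, which also holds the endothelin receptor gene EDNRB of neural crest cells: it had 3 opened and 5 p63-closed sites.

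**Figure D5:**
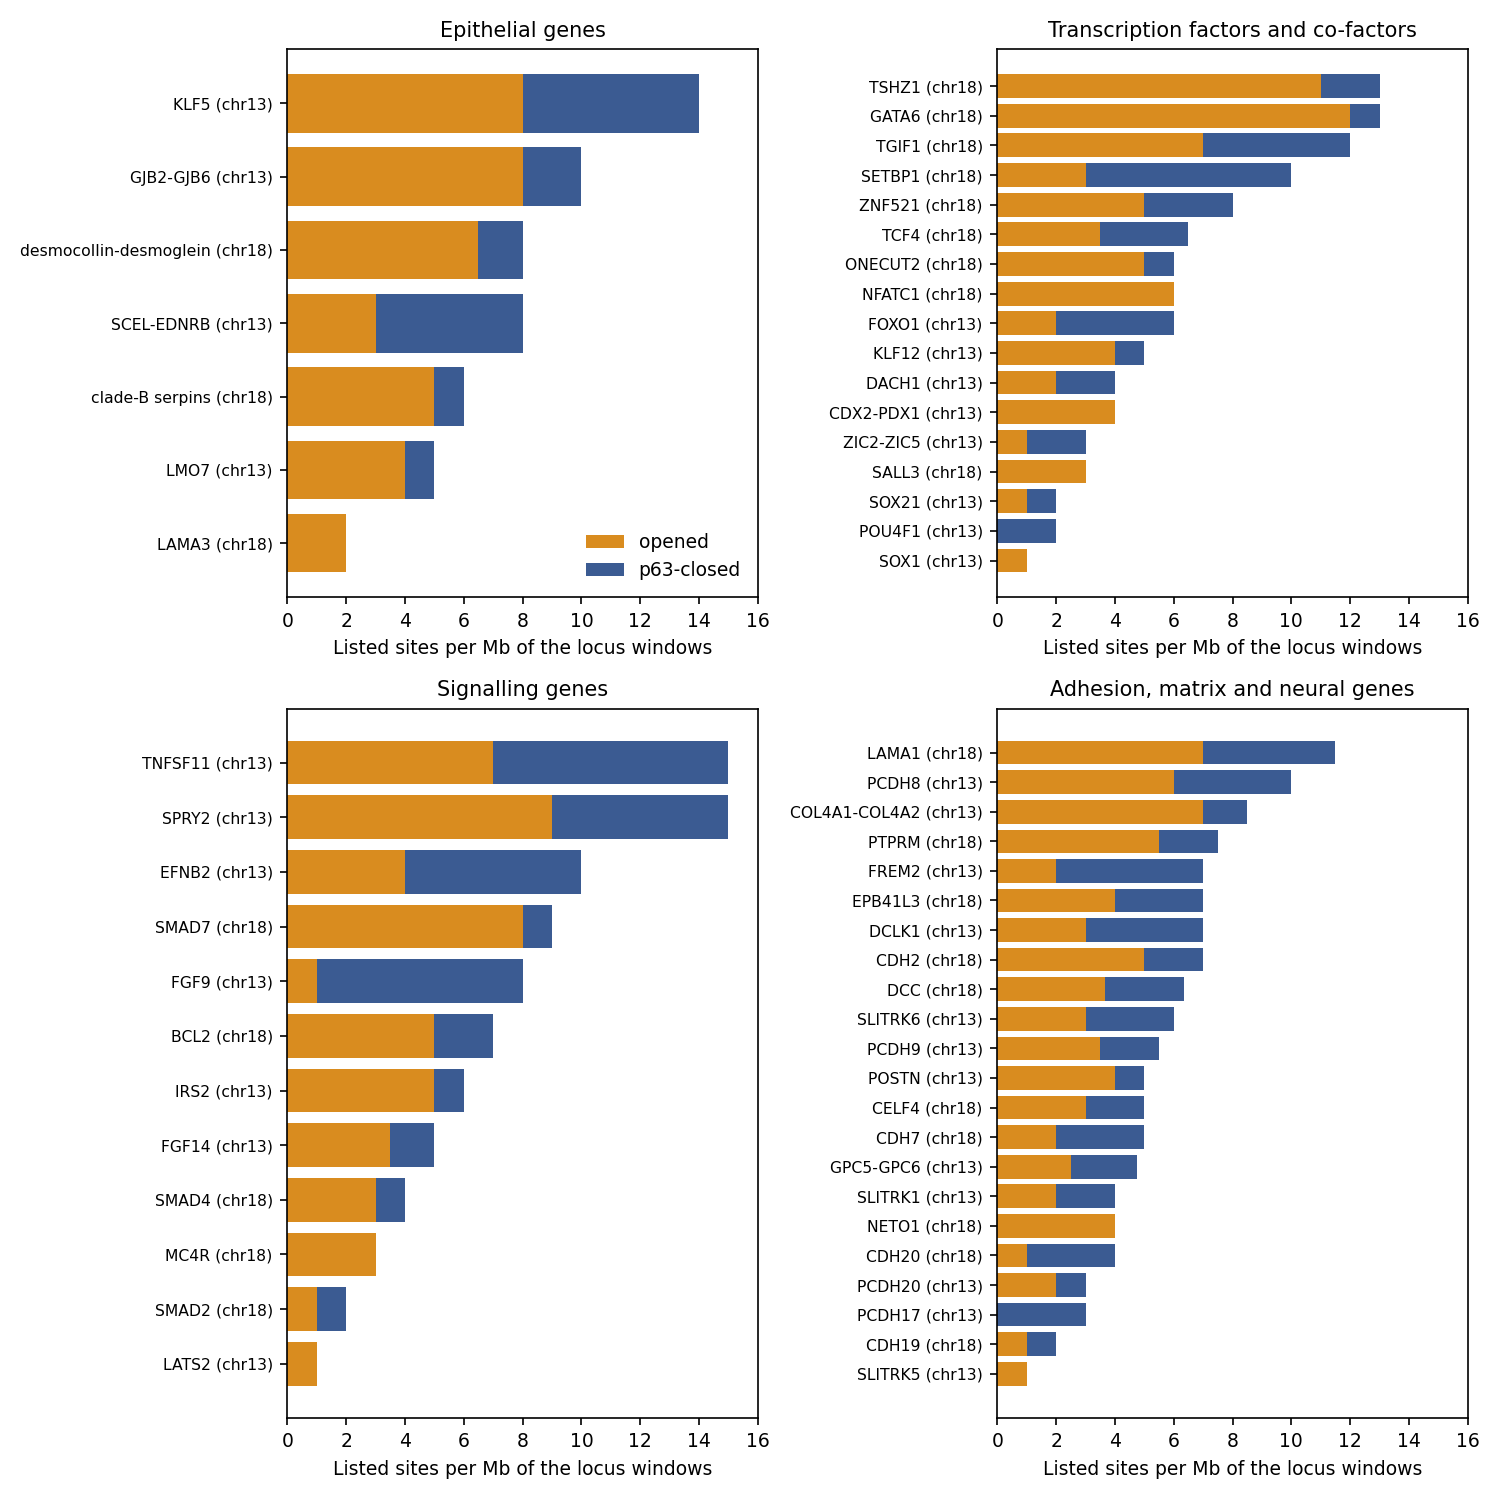
Opened (orange) and p63-closed (blue) sites per Mb in the 1 Mb windows of 58 known loci on chromosomes 13 and 18, by role of the gene. The windows of GATA6 and TSHZ1 are nearly all opened, with 12 of 13 and 11 of 13 sites, while those of FGF9 and SETBP1 are mostly p63-closed, with 7 of 8 and 7 of 10.

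Loci of transcription factors and their partners held 74 opened and 37 p63-closed sites in 18 windows (33.3% p63-closed, 24.7 to 42.9%). Most of these sites lay on chromosome 18, where 34.7% of all listed sites were p63-closed, so this share also depends on the mix of chromosomes. GATA6, a zinc-finger factor of endoderm and heart, had 12 opened sites and 1 p63-closed site in its window. The opened sites ran from 19032359 to 19774495 with no p63-closed site between them, the equal longest such stretch on the chromosome. Among them was the widest opened site of chromosome 18, 3818 bp from 19748368 to 19752185. The p63-closed site lay apart, from 19990723 to 19993155. The window of TSHZ1, a zinc-finger gene of the teashirt family, had 11 opened and 2 p63-closed sites. The opened ones lay between 72095859 and 72589343, apart from 1 from 72938194 to 72939162. TGIF1, a homeobox repressor of TGF-beta and retinoid responses, had 7 and 5.

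Further windows with mostly opened sites were those of ZNF521 (5 opened and 3 p63-closed), ONECUT2 (5 and 1), KLF12 (4 and 1), NFATC1 (6 and 0) and the neighbouring homeobox genes CDX2 and PDX1 (4 and 0). The windows of TCF4, a helix-loop-helix partner of many factors, had 7 and 6, and DACH1 had 2 and 2. Some factor loci leaned the other way. SETBP1 had 3 opened and 7 p63-closed sites, of which 5 gathered between 42044163 and 42175595, and FOXO1, which acts downstream of insulin signals, had 2 and 4.

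Signalling loci held 54 opened and 36 p63-closed sites in 13 windows (40.0% p63-closed, 29.8 to 50.9%). The inhibitory SMAD gene SMAD7, a feedback target of BMP and TGF-beta signals, had 8 opened sites and 1 p63-closed site, and SMAD4, the partner shared by both branches, had 3 and 1. At SPRY2, a feedback inhibitor of FGF receptors, there were 9 opened and 6 p63-closed sites, and at TNFSF11, the gene for the ligand RANKL, 7 and 8. FGF9 had the most one-sided window of this group in favour of p63-closed sites. It held 1 opened site, from 22639143 to 22640238, among 7 p63-closed sites between 22588187 and 22900584. The part of the window before 22588187 held no listed site and belongs to the longest empty stretch of the chromosome. These sites are thus not shown to lie at FGF9 itself. EFNB2, which encodes an ephrin ligand, had 4 and 6. The windows of FGF14 had 7 and 3, those of IRS2 and BCL2 5 and 1, and 5 and 2.

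Loci of adhesion, matrix and neural genes had 107 opened and 73 p63-closed sites in 31 windows (40.6% p63-closed, 33.3 to 48.1%), close to the mix over all windows. LAMA1, which encodes a laminin chain of the early embryo, had 14 opened and 9 p63-closed sites in its 2 windows. The adjoining collagen genes COL4A1 and COL4A2 had 14 and 3. CDH2, which encodes N-cadherin, had 5 and 2, and the protocadherin gene PCDH8 had 6 and 4. The receptor phosphatase PTPRM had 11 and 4, sharing a window with LAMA1. The netrin receptor gene DCC had 11 and 8, PCDH9 7 and 4, and the glypican genes GPC5 and GPC6 10 and 9.

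Of the remaining loci of this group with at least 4 sites, p63-closed sites were in the majority at FREM2, an extracellular matrix gene of developing skin (2 opened and 5 p63-closed), at DCLK1 (3 and 4), and at the cadherin genes CDH20 (1 and 3) and CDH7 (2 and 3). SLITRK1 (2 and 2) and SLITRK6 (3 and 3) were even. Opened sites were in the majority at POSTN (4 and 1), EPB41L3 (4 and 3), CELF4 (6 and 4) and NETO1 (4 and 0).

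Sites gathered into clusters, here taken as runs of listed sites whose centres are at most 50 kb apart. On chromosome 13, 119 runs of at least 2 sites held 322 sites, 58.0% of the chromosome's total. On chromosome 18, 81 runs held 230 sites, or 53.5%. On the other 20 autosomes 55.0% of listed sites had another that close, so the gathering was much the same as elsewhere. Both lists were held by 58 of the 119 runs and 37 of the 81. Mixed runs were not counted on the other autosomes. The largest run of either chromosome had 12 sites in 163 kb on chromosome 18, from 57125596 to 57288876, with 8 opened and 4 p63-closed sites that alternated over its first 7 sites. General knowledge of the map places CCBE1, a gene of lymphatic development, there; this name was added after the values were seen. It opened with an opened site of 2309 bp, was widest at 57220972 to 57224237 (3266 bp, opened), and ended with 3 opened sites in a row.

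On chromosome 13 the largest run had 8 sites in 115 kb, from 107005768 to 107120993, in the window of EFNB2, and 6 of these were p63-closed. Runs of 7 followed from 53674459 to 53766076, in the window of PCDH8, and from 46708948 to 46855849, each with 3 opened and 4 p63-closed sites. A further run of 7 had the opposite mix, with 6 opened sites and 1 p63-closed site from 111099426 to 111255289, in the windows of COL4A1 and COL4A2. On chromosome 18 the next runs also had 7 sites: 3 opened and 4 p63-closed from 50141409 to 50291310, in the windows of DCC, and 7 opened and no p63-closed from 23965539 to 24121413. By 1 Mb windows, the fullest on chromosome 13 ran from 99000001 to 100000000, with 12 opened and 5 p63-closed sites, and 8 of the 173 windows were empty.

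Of 554 pairs of neighbouring sites on chromosome 13, 56.0% had both sites from 1 list, the lowest share of the 22 autosomes. On chromosome 18 this was so in 61.8% of 429 pairs, against 60.9% on the other 20 autosomes. This share also depends on the mix of the lists, which differs between chromosomes, so it is no measure of interleaving by itself. An opened site lay within 50 kb of 31.2% of the p63-closed sites of chromosome 13 and 34.2% of those of chromosome 18, against 28.6% elsewhere. A second p63-closed site lay that close to 43.8% and 33.6%, against 42.1% elsewhere. Of the opened sites, 25.1% on chromosome 13 and 19.6% on chromosome 18 had a p63-closed site within 50 kb, against 23.1% elsewhere. These shares too depend on the mix of the lists. The longest stretch of 1 list held 18 opened sites, from 97873854 to 99625703 on chromosome 13. Chromosome 18 had a stretch of 12 opened sites from 75009645 to 77749322, its last listed site. Its longest p63-closed stretch also had 12 sites, from 40199476 to 42175595, and ended in the SETBP1 window. On chromosome 13 the longest p63-closed stretch had 9 sites, from 54327342 to 55174528.

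Some sites of different lists almost touched. On chromosome 13 a p63-closed site ending at 62121304 was followed after 235 bp by an opened site that began at 62121540. The nearest such pair of chromosome 18 was 621 bp apart, with a p63-closed site from 51282078 to 51283287 and an opened site from 51283909 to 51286640. Among pairs of sites with consecutive catalogue numbers, chromosome 13 had 8 pairs of opened sites, 3 of p63-closed sites and 7 mixed ones. Chromosome 18 had 10, 1 and 1.

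Widths were much the same as elsewhere. The median opened site measured 1572 bp on chromosome 13 (quartiles 1202.5 and 2013 bp) and 1593 bp on chromosome 18 (1232 and 2062 bp), against 1606 bp on the other 20 autosomes (1227 and 2065 bp). For p63-closed sites the medians were 1446.5 bp (1153.75 and 1921.25 bp), 1531 bp (1171 and 1919 bp) and 1535 bp (1181 and 2013.25 bp). The spread within each set was far wider than these differences, which were not tested. The widest sites of chromosome 13 were an opened site of 4333 bp from 92272345 to 92276677, in the windows of GPC5 and GPC6, and one of 3703 bp from 97930647 to 97934349. Its widest p63-closed sites measured 3433 bp, from 33725226 to 33728658, and 3319 bp, from 90512233 to 90515551. On chromosome 18 the second widest opened site, after that at GATA6, had 3650 bp from 55363060 to 55366709, in the ONECUT2 window. The widest p63-closed sites there had 3880 bp, from 26269525 to 26273404, and 3466 bp, from 35617996 to 35621461.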

How the data were processed

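The 2 site lists analysed were made by the authors; per the submitters' processing notes, FastQC, Bowtie2, SAMtools, MACS2 and DESeq2 and the builds hg19 and GRCh37 were used, without versions. The sources used here give neither thresholds nor whether replicates were pooled. The lists give start and end positions and numbered site names, with no signal, so neither depth nor replicate error is known.

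Sites were placed by their centres. Catalogue entries were interpolated from site numbers, and 6 jumps of the numbering, none on chromosomes 13 or 18, were filled by distance. Densities were compared by quasi-Poisson models (entries as offset) and shares by a quasi-binomial model over 5 Mb bins of the 22 autosomes, two-sided, with Benjamini-Hochberg adjustment over 6 terms and a threshold of 0.05. Chromosome X was left out. The models do not allow for likeness between neighbouring bins. They and the exact binomial test of bins were run on simulated data, with outcomes not given here. For the bin test the simulated sites were independent draws, so false calls from gathered sites could not appear. Named were all loci with at least 4 sites or none, the epithelial loci, the 3 bins with most sites of each list (with ties), the 2 bins with the highest and lowest shares, the 3 largest clusters, the 2 longest gaps and the 2 widest sites of each list. The regions, loci and tests were chosen with earlier results of these data known. Python 3.11.15, statsmodels 0.14.6, scipy 1.17.1 and matplotlib 3.10.9 were used.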

Additional observations from a re-analysis of the deposited data

How the results depend on the processing

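No paired analysis was possible because neither list gives a value for a sample, so that leaving out replicates or raising a threshold could not be tried either. The models hold only terms for the chromosomes, so bin size cannot move a ratio and changes only its interval. With bins of 2 Mb the ratios of chromosome 18 passed the threshold: 0.680 for the odds of a p63-closed site and 1.28 for the density of opened sites (adjusted p = 0.0361 for each; 0.0361 to 0.186 and 0.0361 to 0.183 over the settings tried). The odds of chromosome 13 against chromosome 18, at 1.66, did the same (adjusted p = 0.0302; 0.0302 to 0.121 over bins of 2, 5 and 10 Mb). Smaller bins count more of the gathered sites as independent. With base pairs in place of entries, opened sites on chromosome 18 were 1.31 times as dense (adjusted p = 0.0497); the cause was not tested. Changes of the reference chromosomes or the offset, and joining of nearby sites, can move a ratio against the other autosomes, and none turned a direction. For chromosome 13 against chromosome 18 only bin size was varied, which could not turn it. Clusters of at least 5 sites numbered 18 with centres at most 50 kb apart, 6 at 25 kb and 44 at 100 kb. Opened sites with a p63-closed neighbour went from 129 within 50 kb to 39 within 10 kb, and p63-closed sites with an opened neighbour from 132 to 41; these counts follow from the distance allowed. The 0 shared sites could not rise under 50% reciprocal overlap. A region outside both lists may still have changed.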
